A study of Mus musculus with 6 samples.

Results

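The globin genes encode the oxygen-carrying chains of haemoglobin, and their messenger RNA fills red blood cells. Dissected brain tissue carries some red cells in its vessels. The 7 globin genes Hba-a1, Hba-a2, Hba-x, Hbb-bs, Hbb-bt, Hbb-y and Hbb-bh1 and Alas2, the erythroid form of the first enzyme of haem synthesis, were found by gene name in a table of 29659 genes measured in lateral ganglionic eminence (LGE) of mice at embryonic day 16.5, and all 8 names matched. Striatal projection neurons are born in the LGE, a swelling of the ventral forebrain. RNA was sequenced from 2 groups of 3 libraries. Zfhx3-CKO mice carried the Dlx5/6-Cre transgene, which drives Cre recombinase in the ganglionic eminences, and floxed copies of Zfhx3, a transcription factor gene. Control mice carried Dlx5/6-Cre without a floxed gene named in the labels, and both groups are labelled C57BL/6. The transgene is known for activity in forebrain neurons and their progenitors, not in red cells.

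Haemoglobin joins a pair of alpha-like and a pair of beta-like chains. In mice the alpha-like genes lie together on chromosome 11 and the beta-like genes on chromosome 7. Primitive red cells, made in the yolk sac, use the embryonic chains of Hba-x (zeta), Hbb-bh1 and Hbb-y (epsilon), and as these cells mature Hbb-bh1 gives way to Hbb-y. Definitive red cells, made in the fetal liver and later in bone marrow, use the adult chains of Hba-a1, Hba-a2, Hbb-bs and Hbb-bt, of which Hbb-bs and Hbb-bt form the adult beta pair of C57BL/6 mice.

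The libraries held 18960574 to 20311799 counts in the Zfhx3-CKO group and 15938590 to 16753355 in the control group. The targeted gene, Zfhx3, had 2016, 1650 and 1939 counts in Zfhx3-CKO libraries 1, 2 and 3, against 2240, 2137 and 1686 in control libraries 1, 2 and 3, and did not pass (log2 fold change -0.37, SE 0.12, edgeR quasi-likelihood test with Benjamini-Hochberg adjusted p 0.091). These are counts over the whole gene, and which exons are floxed is not stated in the labels, so they are a limited check. Xist, transcribed from the silenced X, had 55947 to 59631 counts in the Zfhx3-CKO libraries and 5 to 9 in the controls, so sex and genotype cannot be told apart; this touches Alas2, which is X-linked. The 14 LGE and striatal markers summed to 4475 to 4705 CPM (counts scaled to TMM-adjusted library size) in Zfhx3-CKO and 5089 to 5523 CPM in control libraries, all 14 passed the low-count filter, and 6 fell and 1 rose, where 3.49% of all tested genes fell and 3.87% rose; the falls of Bcl11b and Gad2 were lost without Zfhx3-CKO library 1 or control library 1 or 2. Cortical excitatory neuron genes were not even between libraries. Their 10 genes summed to 164, 43.5 and 261 CPM in Zfhx3-CKO libraries 1, 2 and 3 and to 42.5 to 48.1 CPM in the controls. Of 9 tested 1 rose, where 3.87% of all tested genes did. Without Zfhx3-CKO library 2, 9 rose, where 5.11% of tested genes did. That setting leaves out the only Zfhx3-CKO library at the control level, so these calls restate the sums and add no support. Nothing in the labels says that the libraries came from separate animals, so p-values measure only the spread between them, which may be technical.

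The DNA just upstream of globin genes and Alas2 is shown as a description, and its part in their levels was not tested. Promoters of erythroid genes are known for the CACCC box, bound by KLF1, the GATA motif, bound by GATA1, the CCAAT box and the TATA box. The windows below are the 150 bases before the transcript start in RefSeq (GRCm38.p6), read 5′ to 3′ on the gene's strand; 7 of the 8 genes had an entry. Capitals mark a match to the CACCC box, to the letters CCAAT of the box of that name, to GATA for the factor motif, or to TATAA for the TATA box, or the reverse complement of any of them, so that both strands were searched, and no matches overlapped. The deposited annotation begins each gene shown further upstream than RefSeq does. For Hba-a1, Hba-x and Hbb-bs the whole window lies inside the deposited gene, and for the others a part of it does.
Hba-a1 (chr11:32283522-32283671, plus strand): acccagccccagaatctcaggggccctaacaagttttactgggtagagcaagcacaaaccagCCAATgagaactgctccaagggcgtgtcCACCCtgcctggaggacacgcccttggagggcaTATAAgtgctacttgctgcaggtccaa
Hbb-bs (chr7:103827929-103828078, minus strand): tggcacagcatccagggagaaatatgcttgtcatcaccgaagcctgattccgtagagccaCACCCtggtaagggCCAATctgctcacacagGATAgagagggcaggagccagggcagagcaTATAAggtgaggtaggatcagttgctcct
Hbb-bt (chr7:103813924-103814073, minus strand): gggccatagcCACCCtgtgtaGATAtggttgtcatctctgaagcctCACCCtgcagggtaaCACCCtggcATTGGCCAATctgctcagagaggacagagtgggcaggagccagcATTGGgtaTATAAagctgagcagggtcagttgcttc
Hba-x (chr11:32276450-32276599, plus strand): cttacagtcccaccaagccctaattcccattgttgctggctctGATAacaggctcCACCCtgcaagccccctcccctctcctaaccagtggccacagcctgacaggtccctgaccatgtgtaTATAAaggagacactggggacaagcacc
Hbb-y (chr7:103853208-103853357, minus strand): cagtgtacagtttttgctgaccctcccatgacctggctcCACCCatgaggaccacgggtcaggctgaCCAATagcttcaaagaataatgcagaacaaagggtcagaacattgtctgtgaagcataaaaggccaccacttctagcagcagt
Alas2 (chrX:150547267-150547416, plus strand): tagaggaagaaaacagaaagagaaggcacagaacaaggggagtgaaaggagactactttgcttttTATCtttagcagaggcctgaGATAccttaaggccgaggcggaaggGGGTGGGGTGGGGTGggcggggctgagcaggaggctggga

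Every one of these 6 windows held CACCC, against 37.4% of all 32851 RefSeq windows of the same length. Hbb-bt and Alas2 had 3 CACCC matches each and the other 4 windows had 1 each. TATAA lay in the windows of the adult genes and of Hba-x, where 14.2% of all windows hold it, and CCAAT in those of the adult genes and of Hbb-y (24.5% of all windows). GATA was matched in Hba-x, Hbb-bs, Hbb-bt and Alas2 (35.7% of all windows). A match is a description of the letters and not of binding. Hba-a2 is not shown since its 250 bases upstream share an unbroken run of 247 bases with those of Hba-a1.

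That likeness extends into the transcripts and limits what the counts can say. The longest protein-coding transcripts of Hba-a1 and Hba-a2 (GENCODE vM21) differed at 1 of 538 aligned bases and shared a run of 415 identical bases. Those of Hbb-bs and Hbb-bt differed at 39 of 609 aligned bases, with a shared run of 430 bases. Reads can thus be assigned to either copy, and values for single adult genes are uncertain while their sums are less so. The embryonic genes stand further apart: Hbb-y and Hbb-bs were 74.9% identical over 522 aligned bases, with no shared run longer than 22 bases.

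Haemoglobin transcripts were present in all 6 libraries, and Zfhx3-CKO library 2 held more of them than any other. The 7 globin genes together had 14166, 47653 and 15617 counts in Zfhx3-CKO libraries 1, 2 and 3, against 11623, 15152 and 17777 counts in control libraries 1, 2 and 3. As a share of all counts this was 0.0697% (95% Wilson interval 0.0686 to 0.0709), 0.251% (0.249 to 0.254) and 0.0793% (0.0781 to 0.0806) in the Zfhx3-CKO libraries and 0.0694%, 0.0951% and 0.107% in the controls. Zfhx3-CKO libraries 1 and 3 lay within the range of the control group in CPM or at its lower edge (693 and 799.5 CPM, against 693.5 to 1063 CPM), and Zfhx3-CKO library 2 stood at 2520 CPM. The group means were 1340 ± 1030 CPM in Zfhx3-CKO and 904 ± 190 CPM in control libraries (SD, n = 3 each), a ratio of 1.48, with a difference smaller than the SD of the Zfhx3-CKO group. Without Zfhx3-CKO library 2 the ratio was 0.826. In bulk tissue, more red cells and more globin RNA per cell cannot be told apart.

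Of the adult alpha genes, Hba-a1 (ENSMUSG00000069919, chr11:32283511-32284465, GRCm38, plus strand) carried nearly all counts. It had 353, 1396 and 395 CPM in Zfhx3-CKO libraries 1, 2 and 3, against 383, 563 and 636 CPM in control libraries 1, 2 and 3. Zfhx3-CKO library 2 was the highest of all 6 and Zfhx3-CKO library 1 the lowest, so the groups overlapped. Its log2 fold change was 0.44 (SE 0.48), with an edgeR adjusted p of 0.614.

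The adult beta genes showed the same order among the Zfhx3-CKO libraries. Hbb-bs (ENSMUSG00000052305, chr7:103826534-103828096, GRCm38, minus strand) had 270.3, 886 and 312 CPM in Zfhx3-CKO libraries 1, 2 and 3, against 242, 306 and 334.5 CPM in the controls. Hbb-bt (ENSMUSG00000073940, chr7:103812524-103813996, minus strand) had 65.2, 234 and 87.3 CPM in the Zfhx3-CKO libraries, against 66.1, 82.8 and 90.9 CPM in the controls. For both, Zfhx3-CKO library 2 stood alone above the other 5 libraries, which were mixed between the groups. Neither passed edgeR's test, with log2 fold changes of 0.73 for Hbb-bs (SE 0.40, adjusted p 0.29) and 0.69 for Hbb-bt (SE 0.41, adjusted p 0.329). The proportion of the pair stayed within narrow limits, with Hbb-bs making up 76.6% to 79.1% of the summed FPKM (fragments scaled by gene length and library size) of the adult beta genes in Zfhx3-CKO libraries and 77.1% to 77.2% in controls.

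Alas2 (ENSMUSG00000025270, chrX:150547375-150570638, GRCm38, plus strand), which sets the pace of haem synthesis in erythroid cells, had 11.9, 31.9 and 13.4 CPM in Zfhx3-CKO libraries 1, 2 and 3, against 16.8, 20.5 and 17.5 CPM in the controls. Zfhx3-CKO library 2 was again the highest, and Zfhx3-CKO libraries 1 and 3 lay below all 3 controls. Its log2 fold change was 0.06 (SE 0.34, adjusted p 0.938). Per 1000 globin counts there were 17.2, 12.7 and 16.7 counts of Alas2 in the Zfhx3-CKO libraries and 24.3, 21.5 and 16.4 in the controls, so the library richest in globin RNA had the least Alas2 relative to it.

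**Figure D1:**
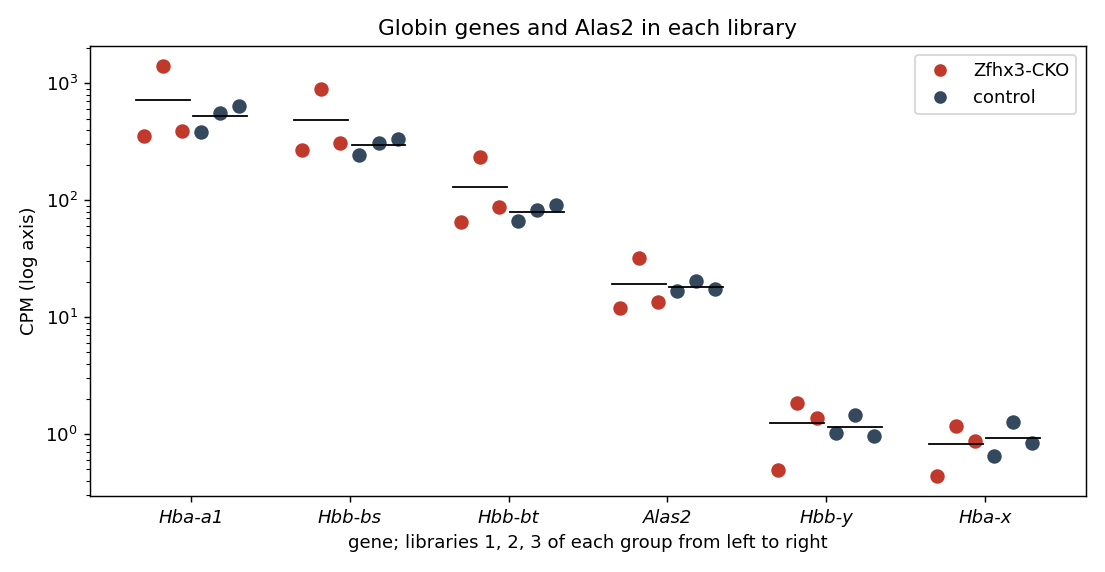
CPM (log axis) of 6 genes in each library, with Zfhx3-CKO libraries 1 to 3 left of control libraries 1 to 3 for each gene and a line at each group mean. Zfhx3-CKO library 2 was the highest for the 3 adult globins, Hbb-y and Alas2, at 1396 CPM for Hba-a1 and 31.9 CPM for Alas2.

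The embryonic genes were detected at a low level. Hbb-y (ENSMUSG00000052187, chr7:103851749-103853216, GRCm38, minus strand) had 10, 35 and 27 counts in Zfhx3-CKO libraries 1, 2 and 3, against 17, 23 and 16 counts in control libraries 1, 2 and 3. Hba-x (ENSMUSG00000055609, chr11:32276400-32278116, plus strand) had 9, 22 and 17 counts in the Zfhx3-CKO libraries, against 11, 20 and 14 in the controls. Zfhx3-CKO library 1 had the fewest counts of both genes, and the groups overlapped. Neither passed (Hbb-y, log2 fold change 0.12, SE 0.46, edgeR adjusted p 0.902; Hba-x, log2 fold change -0.16, SE 0.42, adjusted p 0.853). Hbb-bh1 (ENSMUSG00000052217, chr7:103841637-103843164, minus strand) had 1, 0 and 0 counts in the Zfhx3-CKO libraries and 0, 1 and 0 in the controls. Both totals lie under a floor of 3 counts, so no fold is given for Hbb-bh1, and a difference was not detectable at this depth.

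Ordered by FPKM, which corrects for gene length, Hba-a1 led in every library, followed by Hbb-bs and Hbb-bt. Hba-a1 averaged 878 ± 725 FPKM in Zfhx3-CKO and 651 ± 162 FPKM in control libraries, Hbb-bs 636 ± 447 FPKM in Zfhx3-CKO and 384 ± 62.7 FPKM in control, and Hbb-bt 183 ± 130.2 FPKM in Zfhx3-CKO and 114 ± 18.4 FPKM in control libraries (SD, n = 3 each). Alas2 averaged 7.91 ± 4.62 FPKM in Zfhx3-CKO and 7.61 ± 0.794 FPKM in control libraries. Hbb-y averaged 1.95 ± 1.08 FPKM in Zfhx3-CKO and 1.80 ± 0.415 FPKM in control libraries, and Hba-x 0.877 ± 0.384 FPKM in Zfhx3-CKO and 0.979 ± 0.326 FPKM in control libraries, with Hbb-y above Hba-x in each of the 6. Hba-a2 had 5.91, 0.554 and 4.87 FPKM in Zfhx3-CKO libraries 1, 2 and 3 and 0, 0.282 and 0 FPKM in the controls, and so changed place in the order. In the Zfhx3-CKO group the mean ± SD ranges of Hba-a1 and Hbb-bs, of Hbb-bs and Hbb-bt, and of Hbb-y and Hba-x overlapped, while in the control group they did not. Within each of the 6 libraries the order of these genes was the same.

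Set against the adult genes of the same cluster, the embryonic genes supplied a small share of globin transcripts in both groups. Of the beta-like FPKM, Hbb-y and Hbb-bh1 made up 0.191%, 0.196% and 0.41% in Zfhx3-CKO libraries 1, 2 and 3, against 0.39%, 0.461% and 0.267% in control libraries 1, 2 and 3. The means were 0.266 ± 0.125% in Zfhx3-CKO and 0.373 ± 0.0982% in control libraries (SD, n = 3 each), and the groups overlapped. This difference of -0.107 percentage points was -0.0693 without Zfhx3-CKO library 1, -0.179 without Zfhx3-CKO library 3 and -0.0623 without control library 2. Of the alpha-like FPKM, Hba-x made up 0.107%, 0.0721% and 0.188% in the Zfhx3-CKO libraries, against 0.148%, 0.193% and 0.114% in the controls. The difference in means of -0.0294 percentage points was -0.00426 without Zfhx3-CKO library 2, -0.0625 without Zfhx3-CKO library 3, -0.00857 without control library 2 and -0.0483 without control library 3. These shares rest on 11 to 35 embryonic beta-like counts and 9 to 22 Hba-x counts in a Zfhx3-CKO library, and on 16 to 24 and 11 to 20 in a control library. In counts, the 95% Wilson interval of the beta-like share was 0.0895% to 0.287% in Zfhx3-CKO library 1, the lowest, and 0.26% to 0.576% in control library 2, the highest, and these overlapped. That of Zfhx3-CKO library 2, at 0.119% to 0.229%, lay below the intervals of Zfhx3-CKO library 3 (0.237% to 0.502%) and control library 2 and overlapped those of control libraries 1 and 3. Intervals and floors cover counting error only. The share was lowest in Zfhx3-CKO libraries 1 and 2 for both kinds of chain, and Zfhx3-CKO library 3 lay among the controls.

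**Figure D2:**
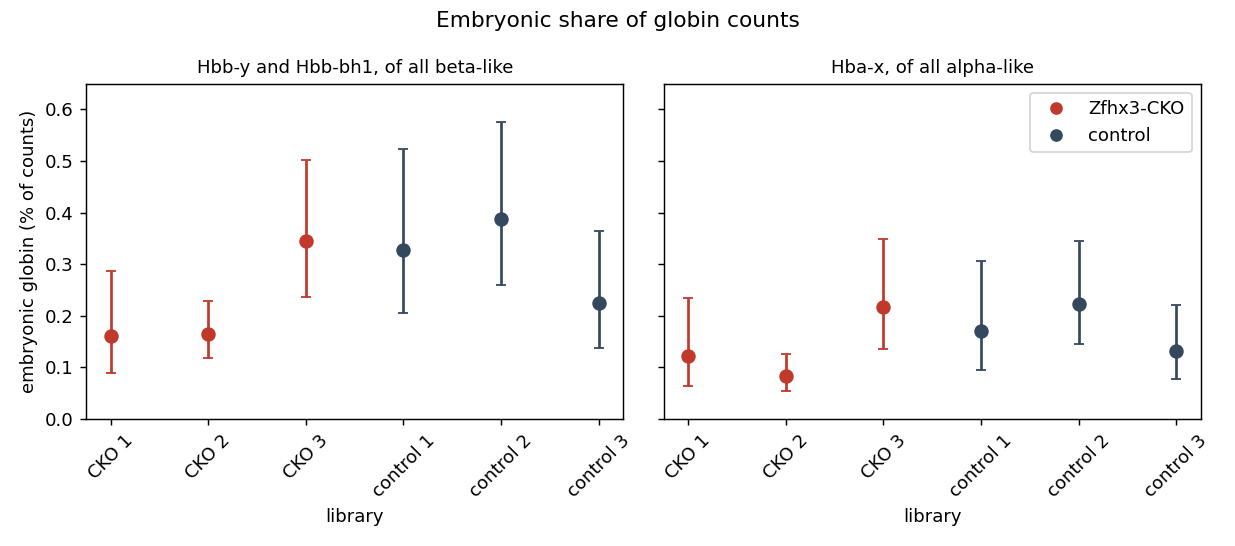
Embryonic globin as a percentage of beta-like counts (left) and alpha-like counts (right) in each library, with 95% Wilson intervals. The Zfhx3-CKO points of the left panel lie at 0.16%, 0.165% and 0.345% and the control points at 0.328%, 0.387% and 0.224%, with overlapping groups.

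Relative to the control mean, the surplus in Zfhx3-CKO library 2 was unequal over the genes. It was 2.65-fold for Hba-a1, 3.01-fold for Hbb-bs and 2.93-fold for Hbb-bt, but 1.75-fold for Alas2, 1.62-fold for Hbb-y and 1.27-fold for Hba-x. Library 2 lay above all controls for the first 5 of these genes. The controls spanned 0.727 to 1.21 for Hba-a1, 0.921 to 1.12 for Alas2 and 0.839 to 1.27 for Hbb-y. For Hba-x, control library 2 stood higher, at 1.37. Zfhx3-CKO library 1 was below the control mean for all 6 genes, between 0.429-fold for Hbb-y and 0.919-fold for Hbb-bs. Over the 6 libraries the log2 CPM of Alas2 followed that of the summed globins with Pearson r = 0.902 (Spearman rho = 0.886), and r was 0.451 without Zfhx3-CKO libraries 1 and 2, the libraries farthest from the median. For Hbb-y r was 0.651 (rho 0.657), and -0.0176 without those libraries, so these relations rest on them. For Hba-x r was 0.64 (rho 0.714), and 0.594 without them. Control library 1 lay nearly as far from the median as Zfhx3-CKO library 1 (693.5 and 693.3 CPM of summed globins). The values with libraries left out thus depend on a close choice. All these correlations describe 6 libraries, in which each globin is also part of the sum.

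**Figure D3:**
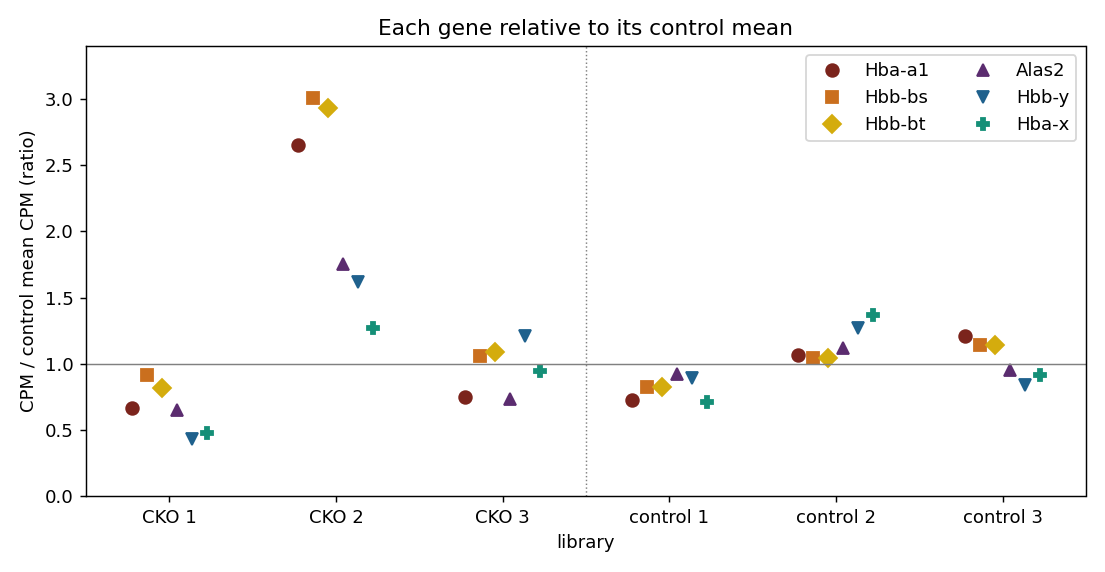
CPM of each gene divided by its mean over the 3 control libraries, for every library (Zfhx3-CKO left, control right of the dotted line). In Zfhx3-CKO library 2 the adult globins lay at 2.65 to 3.01, Alas2 at 1.75 and the embryonic genes at 1.27 and 1.62.

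The alpha to beta balance also differed between libraries. The ratio of summed alpha-like to beta-like FPKM was 0.989, 1.16 and 0.925 in Zfhx3-CKO libraries 1, 2 and 3, against 1.15, 1.34 and 1.38 in control libraries 1, 2 and 3. The means were 1.02 ± 0.121 in Zfhx3-CKO and 1.29 ± 0.123 in control libraries (SD, n = 3 each), and Zfhx3-CKO library 2 lay just above control library 1, so the groups overlapped. No test was run on this ratio, and it is given as a description.

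Hba-a2 (ENSMUSG00000069917, chr11:32296489-32297298, GRCm38, plus strand) had another pattern than its near-identical copy Hba-a1. It had 80, 7 and 64 counts in Zfhx3-CKO libraries 1, 2 and 3, against 0, 3 and 0 counts in control libraries 1, 2 and 3. It was thus high in the Zfhx3-CKO libraries with ordinary globin levels and low in the library where Hba-a1 was highest, and all 3 Zfhx3-CKO libraries lay above all controls in CPM (3.92, 0.37 and 3.28 CPM, against 0, 0.189 and 0 CPM). Among genes that passed the filter, 15.5% had all Zfhx3-CKO libraries higher. The 151 counts in Zfhx3-CKO and 3 in control libraries give a ratio of 42.2 after scaling (exact Clopper-Pearson 95% interval 14.2 to 207). The interval pools counts over libraries, so it covers counting error only and not the spread between libraries. Zfhx3-CKO library 2 alone, with 7 counts, stood outside it at 5.88-fold of the control mean. Hba-a2 did not pass the low-count filter. In the edgeR fit with no filter it passed as higher (adjusted p 0.000265), where 3.62% of 29659 genes did; that call was lost without control library 2 (adjusted p 0.0893), the only control with a count, and without Zfhx3-CKO libraries 1 and 3 (adjusted p 0.354). In the authors' deposited table Hba-a2 has a p of 0.0438 and an adjusted p of 0.191. Its share of the adult alpha counts was 1.1%, 0.0265% and 0.823% in the Zfhx3-CKO libraries and at most 0.0336% in the controls. Its transcript is nearly identical to that of Hba-a1, and how reads of the pair were assigned was not tested. The same libraries, Zfhx3-CKO 1 and 3, held the cortical excitatory neuron transcripts at 164 and 261 CPM, whose part in the Hba-a2 counts was not tested.

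**Figure D4:**
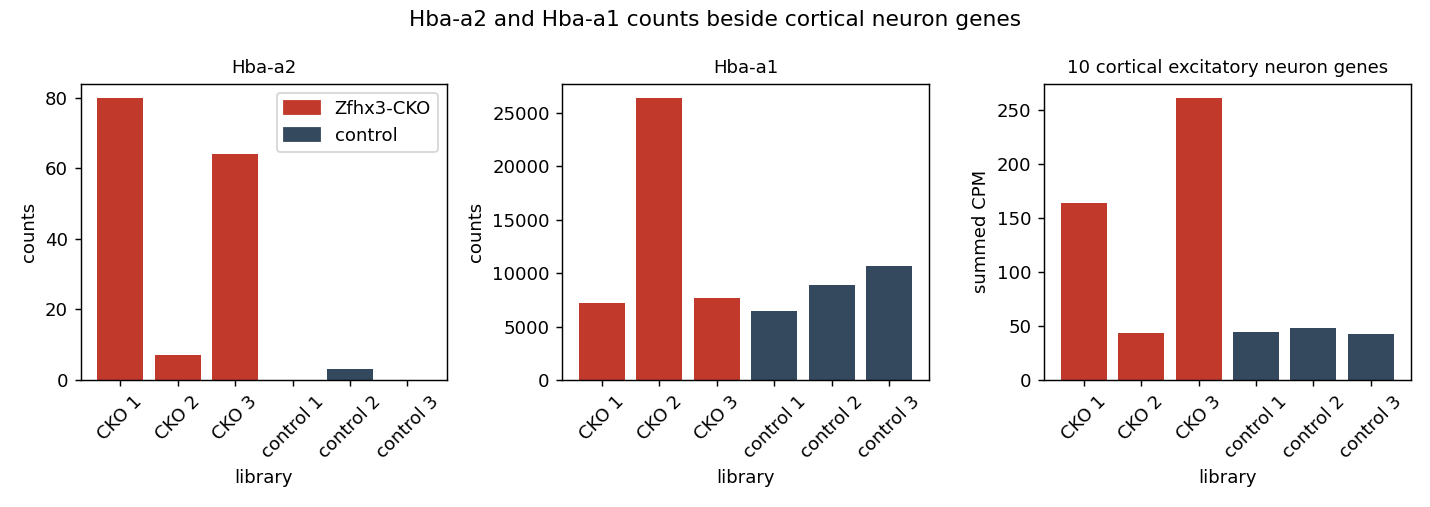
Counts of Hba-a2 (left) and Hba-a1 (middle), and summed CPM of 10 cortical excitatory neuron genes (right), in each library. Hba-a2 was highest in Zfhx3-CKO libraries 1 and 3 (80 and 64 counts), whereas Hba-a1 was highest in Zfhx3-CKO library 2 (26400 counts).

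Across the comparison, 6 of the 8 genes could be tested and none passed in edgeR's quasi-likelihood test, in either direction, where 7.36% of all 16551 tested genes did (3.87% higher, 3.49% lower). None of the 6 had an unadjusted p under 0.05, where 2232 genes did as higher and 2004 as lower, and DESeq2 called 0 of them, against 10.9% of all tested genes. The median log2 fold change was 0.69 over the 3 tested adult globins and -0.02 over the 2 embryonic ones, beside 0.00106 over all tested genes. The authors' deposited table calls none of the 8 significant and gives no p for Hbb-bs. It marks only 122 of 29659 genes as significant, so the lack of a call says little about the 8. Zfhx3-CKO library 2 decided the direction of the 5 genes with a positive value. Without it the log2 fold change was -0.49 for Hba-a1 (adjusted p 0.128), -0.01 for Hbb-bs, -0.06 for Hbb-bt, -0.28 for Hbb-y and -0.53 for Alas2 (adjusted p 0.054). Hba-a2 then passed the filter, only through the libraries in which it was high, and was called higher, where 5.11% of tested genes were; given how it passed, this call is no support for a difference. With library 2 alone set against the controls, its spread taken from theirs, Hba-a1, Hbb-bs, Hbb-bt and Alas2 were higher (adjusted p 0.00377, 0.000334, 0.000342 and 0.0102), where 4.97% of genes were called higher. Library 2 had the most globin RNA of the 6, so these calls restate that level and add no support.

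**Figure D5:**
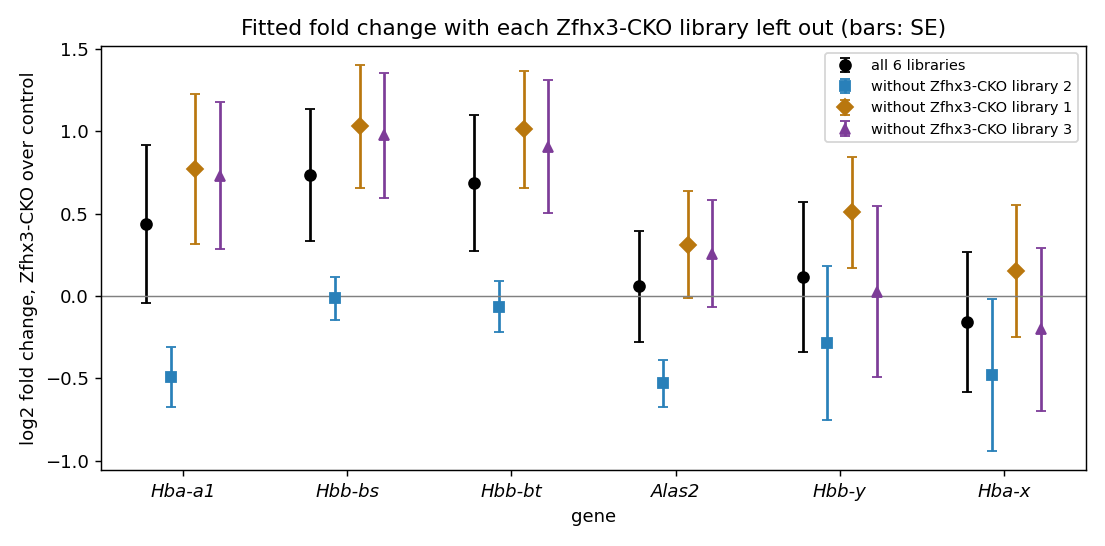
Fitted log2 fold change of Zfhx3-CKO over control with its SE, for all 6 libraries and with each Zfhx3-CKO library left out. Without Zfhx3-CKO library 2 Hba-a1 lay at -0.49, against 0.44 with all libraries.

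Genes of the same red cells were compared next, from lists chosen with earlier results of these data known. Some red cell genes stood near the control level in Zfhx3-CKO library 2. Slc4a1, the band 3 anion exchanger of red cells, had 1.18, 2.91 and 2.36 CPM in Zfhx3-CKO libraries 1, 2 and 3, against 2.86, 3.91 and 3.05 CPM in the controls, which puts library 2 at 0.889-fold of the control mean. Klf1 and Gata1, the master regulators of erythroid genes, were near zero throughout, at 0.196 to 0.614 and 0 to 0.106 CPM in Zfhx3-CKO libraries and 0.239 to 0.567 and 0.0597 to 0.126 CPM in controls. In library 2 Klf1 lay at 1.18-fold of the control mean, from 10 counts. These 3 genes were picked from the lists for their role in red cells.

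The median log2 fold change over 19 tested genes for the red cell membrane and its enzymes was -0.01 (DESeq2 called 0 higher and 1 lower). In edgeR 18 did not pass and 1 rose, where 3.87% of all tested genes rose. The 1 was Tspo2, an erythroid gene of cholesterol transport, with 1.22, 1.27 and 1.64 CPM in Zfhx3-CKO libraries, against 0.597, 0.63 and 0.359 CPM in controls (log2 fold change 1.37, edgeR adjusted p 0.0423); the call was lost without any single library (highest adjusted p 0.138). The list's summed level was 1828 to 1951 CPM in Zfhx3-CKO and 2068 to 2141 CPM in control libraries, led by Cd24a (791 to 830.4 CPM in Zfhx3-CKO and 927 to 937 CPM in control libraries), which neural progenitors also express. Of 8 tested erythroid transcription factors none passed in edgeR (1 higher and 1 lower at an unadjusted p under 0.05, 0 in DESeq2). Their smallest adjusted p was 0.0791 for Klf3, a KLF-family repressor that binds CACCC boxes.

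Of 19 tested genes of haem synthesis and iron supply, 1 rose, 1 fell and 17 did not pass, with a median log2 fold change of 0.07. Over all tested genes 3.87% rose and 3.49% fell. Glrx5, a mitochondrial glutaredoxin needed for iron-sulphur clusters and haem synthesis, rose to 49.8, 46.8 and 42.9 CPM in Zfhx3-CKO libraries, against 24.1, 23.7 and 28.1 CPM in controls (log2 fold change 0.88, adjusted p 0.00284), and passed without each library in turn. Ftl1, the ferritin light chain gene, fell to 42.6, 36.9 and 39.2 CPM, against 51.9, 61.4 and 57.5 CPM in controls (log2 fold change -0.52, adjusted p 0.0146); it did not pass without control library 2 or 3 (adjusted p 0.0917 and 0.0524). Fech, the last enzyme of haem synthesis, did not pass (log2 fold change -0.35, adjusted p 0.0985), nor did Cpox, an earlier enzyme (0.43, adjusted p 0.0635). Alas1, the form of the first enzyme used outside red cells, stood at 40.0 to 41.8 CPM in Zfhx3-CKO and 33.8 to 37.7 CPM in control libraries (adjusted p 0.21). Without Zfhx3-CKO library 2, the highest of its group for Fech (30.6 CPM), Fech was called lower in edgeR (adjusted p 0.0381). Leaving out that library favours such a call, which adds no support. Ferritin genes have processed pseudogenes, so the Ftl1 value is uncertain.

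Of 6 tested genes for haem breakdown and globin clearance none passed in edgeR or DESeq2 (1 higher at an unadjusted p under 0.05). Hmox1, the inducible haem oxygenase, had 28.4, 42.4 and 17.4 CPM in Zfhx3-CKO libraries 1, 2 and 3, against 38.7, 62.4 and 32.6 CPM in the controls (log2 fold change -0.60, adjusted p 0.286). Without Zfhx3-CKO library 2, Lrp1, a receptor that clears haem bound to haemopexin, was called higher (adjusted p 0.0416), where 5.11% of tested genes were. That library was the lowest of its group for Lrp1, so leaving it out favours such a call, which adds no support. Cd163, the scavenger receptor for haemoglobin bound to haptoglobin, was seen in Zfhx3-CKO library 2 at 0.688 CPM, at 0 and 0.0512 CPM in Zfhx3-CKO libraries 1 and 3, and at 0 in all controls.

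Among 13 tested regulators known for switching embryonic to adult globin in red cells, 2 fell and 11 did not pass. Over all tested genes 3.49% fell. Bcl11a, a repressor of embryonic and fetal globin genes that is also a neuronal transcription factor, fell to 348, 335 and 372 CPM in Zfhx3-CKO libraries, against 461, 479.5 and 399 CPM in controls (log2 fold change -0.35, edgeR adjusted p 0.0438). That call was lost without Zfhx3-CKO library 1 or 2 or control library 1 or 2 (highest adjusted p 0.181). Ikzf1, an Ikaros factor with a role in globin switching, fell to 12.9, 13.8 and 18.2 CPM, against 106, 105 and 101 CPM in controls (log2 fold change -2.80, adjusted p 1.75e-05), and is also a factor of striatal neurons. Hic2, known in human red cells as a repressor of BCL11A, and Nr2c1, a nuclear receptor that binds embryonic globin promoters, did not pass (adjusted p 0.173 and 0.205). Bulk libraries do not show which cells these transcripts came from.

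Globins of other tissues were scarce. Cygb, the cytoglobin gene of fibroblast-like cells, had 3.33, 4.13 and 7.58 CPM in Zfhx3-CKO libraries and 5.73, 5.98 and 4.96 CPM in controls. Ngb, the neuroglobin gene, had 0.461 to 0.685 CPM in Zfhx3-CKO and 0.441 to 0.658 CPM in control libraries. Neither passed in edgeR (adjusted p 0.795 and 0.983; 0 in DESeq2, 0 at an unadjusted p under 0.05). Of the other genes of the globin clusters, Hbq1a had 1, 2 and 4 counts in Zfhx3-CKO and 2, 2 and 1 in control libraries, and Hbq1b had 0 in every Zfhx3-CKO library and 2, 2 and 1 counts in the controls; neither was tested.

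Markers of cells that share the vessels with red cells, or line them, were set beside the globin levels. The 19 endothelial and pericyte genes summed to 404.5, 440 and 503 CPM in Zfhx3-CKO libraries 1, 2 and 3 and to 400 to 411 CPM in controls. The library with the most globin RNA thus lay above all controls and between the other Zfhx3-CKO libraries. Of 18 tested none passed in edgeR (4 higher at an unadjusted p under 0.05, 1 in DESeq2), and for Pecam1, the CD31 gene, the log2 fold change was 0.43 (adjusted p 0.0755). The 10 platelet genes summed to 18.3, 18.5 and 21.9 CPM in Zfhx3-CKO and 15.4 to 19.1 CPM in control libraries, and none of 4 tested passed in edgeR (0 at an unadjusted p under 0.05, 0 in DESeq2). Pf4, the platelet factor 4 gene, stood at 1.16 CPM in Zfhx3-CKO library 2 and at 0.147 to 0.478 CPM in the other 5. The 11 white blood cell genes summed to 57.3, 71.2 and 45.1 CPM in Zfhx3-CKO and 24.9 to 40.8 CPM in control libraries, led by Lyz2, the lysozyme gene of myeloid cells. Lyz2 rose (log2 fold change 1.46, adjusted p 0.022) and Ptprc, the pan-leukocyte CD45 gene, fell (log2 fold change -0.68, adjusted p 0.0356), and the neutrophil genes S100a8, S100a9, Ngp, Camp and Ltf stood at or under 0.538 CPM in every library. The call of Lyz2 was lost without Zfhx3-CKO library 1 or control library 1 or 2 (highest adjusted p 0.115), and that of Ptprc without any single library other than Zfhx3-CKO library 3 (highest adjusted p 0.148). Of 12 microglia and macrophage genes 11 did not pass and 1 fell, where 3.49% of all tested genes fell. The 1 was P2ry12, a receptor of microglia (log2 fold change -1.81, edgeR adjusted p 0.00407). The list summed to 443, 469 and 307 CPM in Zfhx3-CKO and 405 to 597 CPM in control libraries.

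Some other transcripts were also highest in Zfhx3-CKO library 2. The 10 named genes most like the summed globins over the 6 libraries, among 12919 with a mean of at least 1 CPM, had Pearson r of 0.972 to 0.996 and Spearman rho of 0.829 to 1. These genes were picked by that correlation, so its height adds no support. They were Mms19, Gpr157, Ppp1r18, Col1a2, Tmem251, Etf1, Fbln5, Trim25, Cdc42ep4 and Tnfaip2. Without Zfhx3-CKO libraries 1 and 2 their r was 0.713 to 0.993 over 4 libraries. For some the surplus in library 2 was small. Etf1 had 168 CPM there and 141.5 to 153 CPM in the other libraries, and Ppp1r18 had 88.1 CPM against 76.0 to 81.4 CPM. Col1a2, a collagen chain of fibroblasts, had 6.12, 21.4 and 7.68 CPM in Zfhx3-CKO libraries 1, 2 and 3, against 7.88, 9.32 and 9.69 CPM in the controls. Fbln5, a protein of elastic fibres, had 1.52, 4.60 and 1.74 CPM in the Zfhx3-CKO libraries and 1.73, 1.76 and 2.45 CPM in the controls. F13a1 and Mrc1, markers of macrophages at the borders of the brain, stood at 3.02 and 6.77 CPM in Zfhx3-CKO library 2, at 0.343 to 0.358 and 3.03 to 3.74 CPM in the other two Zfhx3-CKO libraries and at 1.07 to 1.85 and 2.71 to 3.64 CPM in the controls. F13a1, Mrc1, Cd163 and Pf4 were singled out after their values were seen. With all 6 libraries F13a1 did not pass in edgeR (log2 fold change -0.19, adjusted p 0.906). Without Zfhx3-CKO library 2 it was lower (log2 fold change -1.97, adjusted p 0.0262). F13a1 was singled out for its level in that library, so this call adds no support. The part of any such cells in the globin levels of library 2 was not tested.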

How the data were processed

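Columns of the full table (29659 genes) were tied to samples through a second deposited table of 3726 genes that carries the sample titles and holds identical values for each of its genes. The submitters' processing notes list bcl2fastq 2.17.1.14, StringTie, HISAT2 and edgeR with build GRCm38.p4 (mm10) and no roles. How reads shared by near-identical genes were assigned is not stated there. The deposited counts are whole-number gene counts without normalisation, per the file headers. FPKM values were deposited by the authors alongside them. The authors also deposited log2 fold changes and p-values from a test the headers do not name, and a signal column, baseMean, which was not used. The labels give a TruSeq RNA kit, which keeps no strand information.

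Counts were tested with edgeR 4.0.16 (limma 3.58.1, R 4.3.3) by quasi-likelihood, with TMM factors of 0.992 to 1.01, filterByExpr at a minimum count of 10 (16551 genes kept, 13108 left out), group as the only term and Benjamini-Hochberg adjustment at 0.05. Hba-a2 and Hbb-bh1 did not pass the filter. Sums, shares and ratios over the members have no test. Alternatives were RLE factors, library totals, DESeq2 1.42.0, no filter or a stricter one, a replicate block, limma-trend on log2(FPKM + 1) and log2(FPKM + 0.1), and libraries left out. List counts without Zfhx3-CKO library 2 were added after seeing the data. The 8 members and 16 gene lists (170 of 178 listed genes found) were chosen with earlier results of these data known. Named genes were the members, Zfhx3 and Xist, and the 10 genes most correlated with the summed globins. Of the lists, genes past the threshold and up to 4 others per list with the smallest p were named. The LGE and cortical excitatory neuron lists were an exception. Of them only Bcl11b and Gad2 were named, and the other genes past the threshold were given as counts. Slc4a1, Klf1, Gata1, Alas1, Cd24a, F13a1, Mrc1, Cd163, Pf4 and the neutrophil genes were named for their role or after their values were seen. Libraries of a group were no duplicates (chi-square per gene 3.32 to 29.3). The test was tried on simulated data.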

Additional observations from a re-analysis of the deposited data

How the results depend on the processing

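The low depth of the embryonic genes and the single library rich in globin RNA limit these comparisons. The counts called over all genes were 640 higher and 578 lower; they were 1014 higher with DESeq2, 1075 higher with no low-count filter, and 180 higher and 131 lower with the replicate block. Leaving out single libraries gave 156 to 1082 higher and 131 to 1014 lower, and 0 to 1 members higher. With no filter 1 member was higher, Hba-a2, and without Zfhx3-CKO libraries 1 and 3 there were 4. That setting gave log2 fold changes of 1.41 for Hba-a1, 1.59 for Hbb-bs, 1.55 for Hbb-bt and 0.80 for Alas2, which passed, and of 2.47 for Hba-a2, which no longer passed, 0.35 for Hba-x, which turned positive, and a ratio of summed globins of 2.79. Leaving out single libraries moved Hba-a1 between -0.49 and 0.77, Hba-a2 between 4.68 and 8.55, Hba-x between -0.48 and 0.15, Hbb-bs between -0.013 and 1.03, Hbb-bt between -0.065 and 1.01, Hbb-y between -0.28 and 0.51 and Alas2 between -0.53 and 0.31. Of these genes, all but Hba-a2 were lowest without Zfhx3-CKO library 2. Hba-x was 0.15 without Zfhx3-CKO library 1 and 0.14 without control library 2. Hba-a2 values are from fits with no filter. Hbb-y was -0.044 with limma-trend on log2(FPKM + 0.1). Alas2 was -0.064 with limma-trend on log2(FPKM + 1), -0.085 on log2(FPKM + 0.1) and -0.067 with the replicate block. Deviations from the group means correlated at -0.0506, -0.0892 and -0.29 for libraries of the same number. For libraries of different numbers the correlations were -0.199 to 0.242. With so few libraries per group, these values cannot show whether the numbers pair the samples. The block is thus only an alternative, and it changed no member's call. Hbb-bh1 has too few counts for a fold under any setting. Hba-x and Hba-a2 gave no value under limma-trend, and neither they nor Hbb-y under the stricter filter. The cause of these shifts was not tested.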
